A study of Mus musculus with 12 samples.

Results

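The response to carrageenan was measured in myeloid cells of mice with a myeloid deletion of Fabp5. The comparison sets 3 libraries from cells of FABP5Flox/LysM-Cre mice (here cKO) injected with carrageenan against 3 libraries from cKO mice injected with saline, 6 of the 12 libraries in the series. Libraries were chosen by genotype and treatment as labelled. The cells were CD45+, CD11b+ and Ly6G-, were sorted from the hind paw 4 h after an injection of saline or 1% carrageenan into the paw, and were pooled over 4 mice in each cKO library (pools 1-4, 5-8 and 9-12 by mouse number). Both cKO groups carry the floxed Fabp5 allele and Cre recombinase, which is expressed from the lysozyme M gene Lyz2 and therefore acts in macrophages, monocytes and neutrophils. No group carried LysM-Cre without the floxed allele. The other 6 libraries come from FABP5Flox mice without Cre (here Flox), 3 per treatment, each a pool of 3 or 4 mice, and are used to show where the cKO response differs. The labels do not say whether pools of the same number share mice, litters or days between treatments, so p-values measure the spread between pools. In the main test that spread is shared over all 12 libraries, so the Flox pools enter it.

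Carrageenan is a seaweed polysaccharide that provokes acute inflammation and pain when it is injected into the paw. Macrophages that live in the skin are then joined by monocytes and neutrophils from the blood. Myeloid cells sense the injury through pattern recognition receptors, which act through NF-kB and interferon regulatory factors, and secreted type I interferon acts back on the cells through JAK kinases and STAT factors to switch on antiviral genes. The product of Fabp5 binds fatty acids and endocannabinoids and shuttles them within the cell.

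Values below are normalized counts, that is reads assigned to a gene after all 12 libraries were put on 1 common scale. Fold changes are on the log2(value + 1) scale, given with their standard error (SE), and understate the change of genes with low values. A gene was called where the limma test across all genes tested gave an adjusted p (Benjamini-Hochberg) under 0.05.

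The cKO libraries held 508407 to 2987015 reads on genes and 12593 to 16225 genes with at least 1 read. The carrageenan 9-12 library was the shallowest and stood apart on the first principal component of the 6 libraries (57.9% of the variance), at 87.4, against 6.53 and 17.8 for the other carrageenan pools and -46.0 to -26.8 for saline. Neither reads (exact two-sided permutation p = 0.8), nor the share of mitochondrial reads (2.34 to 4.05% in saline, 3.12 to 4.58% in carrageenan, p = 0.2 by the same exact test), nor the share on a 28S ribosomal RNA entry (0.170 to 1.06% and 0.341 to 2.13%, exact p = 0.7) separated the treatments. With 3 pools against 3, this test cannot give a p under 0.1.

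Fabp5 (ENSMUSG00000027533, chr3:10012548-10016607 on GRCm38) was still read in each cKO library. Its values were 6.08, 4.05 and 11.2 in the saline pools (18, 16 and 19 reads) and 6.12, 11.5 and 23 in the carrageenan pools (18, 39 and 15 reads). The groups overlapped, and the log2 fold change of 0.76 ± 0.70 (SE) was not called (limma adjusted p = 0.923). The Flox libraries gave 5.51, 35 and 22.5 in saline and 44.3, 98.0 and 34.0 in carrageenan, so that each Flox carrageenan pool lay above each cKO carrageenan pool while the saline groups overlapped. The overlap in saline rested on Flox saline 1-3, where 5.51 stands for 1 read. The counted 3' reads need not lie in the deleted part of the gene, so they check the deletion only in part. Lyz2, which drives the Cre, was at 2957, 2702 and 2708 in saline and 1918, 2158 and 3496 in carrageenan, with overlapping groups and a log2 fold change of -0.19 ± 0.32 (limma adjusted p = 0.997).

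The sort gate was checked against its own markers. Itgam, which encodes CD11b, was at 315, 326 and 376 in saline and 295, 331 and 338 in carrageenan, and Ptprc, which encodes CD45, was at 348, 486 and 233 against 533, 594 and 515. Neither passed the test (log2 fold change -0.08 ± 0.20 and 0.68 ± 0.27, limma adjusted p = 0.997 and 0.315). Ly6g, the neutrophil antigen that the gate excludes, had 0 reads in saline and 3 in carrageenan over the 3 pools of each.

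After carrageenan, 17 of 34 interferon-stimulated effectors, 9 of 21 monocyte markers, 6 of 16 neutrophil markers and 3 of 13 CC and 4 of 13 CXC chemokines were called higher in cKO cells, and 8 of 27 markers of resident tissue macrophages were called lower. Of 10240 genes tested, 271 were called (2.65%), 215 higher (2.1%) and 56 lower (0.547%). The change was at least 8-fold in 56 of the 215 and in 3 of the 56. The saline and carrageenan values did not overlap for any of the 271, nor for 29.6% of all genes tested. Calls varied with the libraries used: 84, 146 and 111 genes were called without cKO saline 1-4, 5-8 or 9-12, and 218, 96 and 107 without cKO carrageenan 1-4, 5-8 or 9-12, and 520 without Flox saline 1-3, which enters through the shared spread. Of the 271, 73 were called in each of the 12 fits that left out 1 library, 66 of them higher and 7 lower. A fit of the 6 cKO libraries alone called 723 of 9290 genes (7.78%), with 412 higher and 311 lower. The edgeR test on recovered reads called 469 higher (4.58%) and 264 lower (2.58%), and its calls held all 271.

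**Figure D1:**
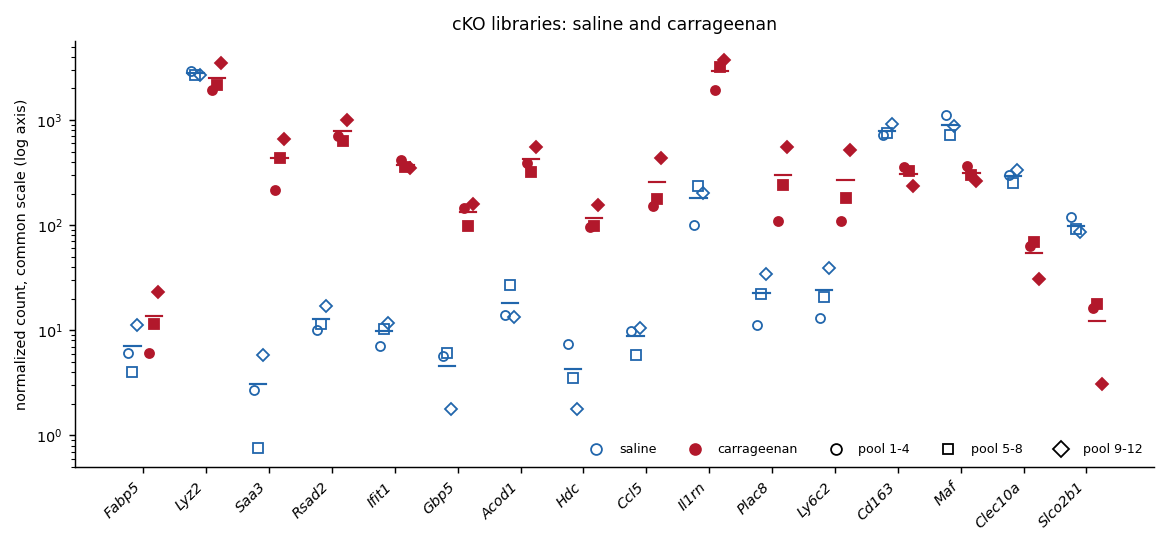
Normalized counts on the common scale (log axis) of 16 genes in the 6 cKO libraries, with open blue symbols for saline, filled red symbols for carrageenan, a symbol shape for each pool number, and bars for the mean of 3 pools. Fabp5 and Lyz2 overlap between treatments, the genes from Saa3 to Ly6c2 are higher in each carrageenan pool, and those from Cd163 to Slco2b1 are lower in each.

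The largest rise was that of Saa3, an acute-phase serum amyloid A protein that macrophages can make (chr7:46711998-46715700 on GRCm38). It was at 2.70, 0.760 and 5.88 in the saline pools and at 215, 437 and 666 in the carrageenan pools. The lowest carrageenan pool was thus far above the highest saline pool, and the log2 fold change was 6.81 ± 0.74 (limma adjusted p = 0.00029). The other 14 largest rises by rule were Rsad2, Ifit2, Ifit1, Slfn4, Cmpk2, Slamf1, Gbp5, Ptx3, Hdc, Ccl5, Slpi, Inhba, Acod1 and Mx2, with log2 fold changes from 4.37 (Mx2) to 5.82 (Rsad2). Of these, 4 lost their call when 1 library was left out: Slfn4 (limma adjusted p up to 0.0857, without carrageenan 9-12), Ptx3 (up to 0.113, without saline 1-4), Slpi (up to 0.200) and Inhba (up to 0.0934, both without carrageenan 9-12).

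Genes that interferon switches on were higher as a group. Of 34 tested interferon-stimulated effectors, which block viral replication in the cell, 17 were called higher and 0 lower, each of the 34 had a positive log2 fold change, and the median was 2.76, against -0.07 over all genes tested. The edgeR test called 31 of the 34 higher, and the limma count ranged from 11 to 30 over the fits that left out 1 library, with 12 without carrageenan 9-12. Rsad2, which encodes the antiviral enzyme viperin (chr12:26442746-26456452), was at 10.1, 11.4 and 17 in saline and at 705, 631 and 1011 in carrageenan (log2 fold change 5.82 ± 0.70, limma adjusted p = 0.00077). Its values within a treatment were close beside the distance between treatments, and the same held for Oasl2, a relative of the RNA-sensing OAS enzymes, at 38.9, 40.8 and 40.0 against 280, 270 and 259 (2.73 ± 0.25, limma adjusted p = 6.94e-05).

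The IFIT proteins bind foreign RNA. Ifit1 was at 7.10, 10.4 and 11.8 in saline and at 417, 360 and 351 in carrageenan, Ifit3 at 3.72, 6.08 and 2.94 against 89.0, 99.5 and 110, and Ifit2 rose from 6 reads over the saline pools to 461. These genes did not overlap between treatments. Isg15, a ubiquitin-like protein that is attached to other proteins, was at 6.76, 12.4 and 21.7 in saline and less even in carrageenan, at 133, 170 and 706, with the highest value in pool 9-12 (log2 fold change 4.25 ± 0.55, limma adjusted p = 0.00104). Mx1 and Mx2, GTPases that trap viruses, rose by 4.35 ± 0.53 and 4.37 ± 0.77 (limma adjusted p = 0.000903 and 0.00732), and Cmpk2, the neighbour of Rsad2 and a nucleotide kinase, by 4.74 ± 0.63 (limma adjusted p = 0.00129). Ifih1 and Zbp1, sensors of RNA and of Z-form nucleic acid, were at 10.8, 25.8 and 12.3 against 198, 148 and 126, and at 6.76, 8.86 and 17 against 56.1, 75.1 and 262, and were not called (limma adjusted p = 0.0508 and 0.0556).

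Of 19 tested genes of interferon signalling and receptors, 6 were called higher and 0 lower, with a median log2 fold change of 0.58 (2 called without carrageenan 9-12, 2 to 7 over the omissions). They were the kinase gene Jak2, the transcription factor genes Stat2 and Stat3, Irf9, a DNA-binding partner of STAT2, and Socs1 and Socs3, which feed back to inhibit cytokine receptors. Jak2 was at 50.7, 65.6 and 51.1 in saline and at 199, 222 and 204 in carrageenan (log2 fold change 1.89 ± 0.27, limma adjusted p = 0.00179). Socs3 was at 295, 443 and 384 against 1181, 1321 and 1494 (1.84 ± 0.23, limma adjusted p = 0.00096). Both genes were well apart between treatments, whereas Stat3 and Socs1 were near the threshold and lost their call in a fit with the pool number as a block (limma adjusted p = 0.065 and 0.054). The receptor genes Ifnar1, Ifnar2, Ifngr1 and Ifngr2 were not called (log2 fold changes -0.73 to 0.72), and neither was Irf7, the factor that amplifies interferon production, at 16.6, 10.6 and 18.8 against 84.9, 89.5 and 322 (limma adjusted p = 0.114, edgeR adjusted p = 6.46e-05). Ifnb1 and Ifng, which encode interferons, had too few reads to be tested.

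Families of interferon-induced GTPases and DNA sensors moved the same way. Of 10 tested guanylate-binding proteins and immunity-related GTPases, which attack the vacuoles of microbes inside the cell, Gbp2, Gbp5, Igtp and Irgm1 were called higher and 0 lower, with a median of 2.10 (2 called without carrageenan 9-12, 2 to 8 over the omissions). Members low in saline could enter the test through the carrageenan libraries. Over all 16 listed members, tested or not, the summed level was 82.9 to 129 in saline and 529 to 720 in carrageenan. Gbp5 was at 5.75, 6.08 and 1.76 in saline and at 146, 97.8 and 160 in carrageenan (log2 fold change 4.70 ± 0.73, limma adjusted p = 0.00322). Of 17 tested members of the schlafen and Ifi200 families, 9 were called higher and 0 lower, with a median of 2.74 (6 without carrageenan 9-12, 6 to 14 over the omissions). They were Slfn1, Slfn4, Slfn5, Ifi203, Ifi204, Ifi205, Ifi206, Ifi209 and Ifi211. Ifi209 was at 20.6, 22.5 and 14.7 in saline and at 181, 279 and 405 in carrageenan (3.78 ± 0.36, limma adjusted p = 7.66e-05). Slfn4 was at 7.10, 5.32 and 2.94 against 72.4, 191 and 476, more unevenly over the carrageenan pools. Aim2, a sensor of cytosolic DNA of the same family, had a log2 fold change of -0.61 and was not called. Members of these families have near-identical copies, between which reads of 3' ends can be split.

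Promoter sequences are shown for 4 of the interferon-stimulated genes and 2 NF-kB target genes that were called higher, because these lists rose as groups and are known targets of factors with short binding motifs. Each is 80 bases of the RefSeq promoter (assembly GRCm38.p6), printed 5′ to 3′ on the strand of the gene. Capitals mark the core of the interferon-stimulated response element, searched as GAAANNGAAA on both strands, in the first 4, and the kappaB consensus, searched on both strands, in the last 2. Overlapping matches run together.
Isg15, chr4:156200840-156200919, minus strand: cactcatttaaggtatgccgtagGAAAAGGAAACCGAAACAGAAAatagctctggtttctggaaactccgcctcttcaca
Ifit1, chr19:34640769-34640848, plus strand: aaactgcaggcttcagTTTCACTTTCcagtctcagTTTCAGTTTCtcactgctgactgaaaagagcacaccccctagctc
Rsad2, chr12:26456528-26456607, minus strand: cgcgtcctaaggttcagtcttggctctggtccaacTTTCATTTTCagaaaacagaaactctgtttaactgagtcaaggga
Gbp5, chr3:142496734-142496813, plus strand: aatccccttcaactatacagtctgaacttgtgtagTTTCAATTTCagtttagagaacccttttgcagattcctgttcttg
Tnip3, chr6:65590309-65590388, plus strand: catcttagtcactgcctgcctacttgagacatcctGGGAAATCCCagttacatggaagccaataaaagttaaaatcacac
Nfkb2, chr19:46304691-46304770, plus strand: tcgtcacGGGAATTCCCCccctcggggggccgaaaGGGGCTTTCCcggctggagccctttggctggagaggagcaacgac

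Over the whole window of 300 bases (250 before the start of transcription and 50 after), 3.44% of all 32851 RefSeq promoters held the response element core. By gene, 328 of 7936 tested genes with a promoter in the table held it (4.13%), 30 of 169 genes called higher (17.8%) and 2 of 41 called lower (4.88%). It was held by 15 of 25 interferon-stimulated effectors, 7 of 7 guanylate-binding proteins and immunity-related GTPases, 11 of 16 schlafen and Ifi200 genes and 0 of 20 NF-kB genes. The kappaB consensus was in 8.46% of all promoters, in 12.5% of tested genes, in 33 of 169 genes called higher (19.5%), in 1 of 41 called lower and in 12 of the 20 NF-kB genes. The windows of Ifit2, Cmpk2 and Oasl2 held no match to the response element core, and those of Saa3 and Acod1 none to the kappaB consensus. A match is a description of the sequence, and a window without one says only that these letters are not in it.

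NF-kB is the transcription factor that most pattern recognition receptors activate, and its targets include its own subunits and inhibitors. Of 25 tested genes of this list, 9 were called higher and 0 lower, with a median log2 fold change of 0.97 (4 without carrageenan 9-12, 3 to 11 over the omissions). The subunits Nfkb1 and Nfkb2 rose by 1.34 ± 0.32 and 1.17 ± 0.25 (limma adjusted p = 0.0357 and 0.0229), and so did Bcl3, a nuclear partner of NF-kB, the inhibitors Tnfaip3, Tnip1 and Tnip3, the survival factor Birc3, the receptor Cd40 and the mitochondrial antioxidant enzyme Sod2. Tnip3 was at 65.2, 97.0 and 98.2 in saline and at 567, 414 and 287 in carrageenan (2.24 ± 0.28, limma adjusted p = 0.000969). Sod2 was at 132, 245 and 160 against 836, 939 and 816 (2.31 ± 0.30, limma adjusted p = 0.000997). Neither overlapped between treatments. The inhibitor Nfkbia was at 1115, 1138 and 1495 against 2319, 1865 and 3041 and was not called (limma adjusted p = 0.125).

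Chemokines recruit leukocytes. Of 13 tested CC chemokines, Ccl3, Ccl4 and Ccl5 were called higher and 0 lower (3 to 4 over the omissions). Ccl4 was at 287, 459 and 254 in saline and at 5299, 5096 and 2622 in carrageenan (log2 fold change 3.68 ± 0.47, limma adjusted p = 0.000997). Ccl5 was at 9.80, 5.82 and 10.6 against 152, 179 and 439 (4.60 ± 0.41, limma adjusted p = 6.84e-05). Carrageenan 9-12 was thus the lowest carrageenan pool for Ccl4 and the highest for Ccl5. Ccl2, which attracts monocytes, was at 610, 1564 and 1377 in saline and at 1440, 1307 and 1095 in carrageenan, with overlap (0.22 ± 0.41, limma adjusted p = 0.997). Of 13 tested CXC chemokines, Cxcl3, Cxcl10, Cxcl11 and Cxcl16 were called higher and 0 lower (1 without carrageenan 9-12, 0 to 4 over the omissions). The log2 fold change was positive for 11 of the 13 and negative for 2. The summed level of the 13 overlapped between treatments, at 5523 to 10755 in saline and 5265 to 9067 in carrageenan (exact two-sided permutation p = 1). Most of each saline sum came from Pf4, which is described with the platelet markers below. The overlap of the sum therefore does not describe the other members. Cxcl10, which interferon induces and which attracts T cells, was at 79.8, 76.0 and 32.3 against 969, 859 and 908. The neutrophil attractants Cxcl1 and Cxcl2 were not called (log2 fold changes 0.53 ± 0.45 and 0.60 ± 0.27, limma adjusted p = 0.892 and 0.432). Among chemoattractant receptors, Fpr2, a receptor for formyl peptides and serum amyloid A, was called higher (limma adjusted p = 0.0167, up to 0.102 without carrageenan 9-12).

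Among cytokines, Il1rn stood out. It encodes the interleukin-1 receptor antagonist, which blocks interleukin-1, and was at 101, 237 and 202 in saline and at 1922, 3229 and 3720 in carrageenan (log2 fold change 4.06 ± 0.44, limma adjusted p = 0.00029). Il1b, the cytokine it opposes, was at 538, 648 and 879 against 1275, 1797 and 3062 (1.50 ± 0.33, limma adjusted p = 0.0243, up to 0.143 without saline 1-4). Both genes were higher in each carrageenan pool. Of 14 tested genes of the interleukin-1 family, Il1rn, Il1b and the inflammasome sensor Nlrp3 were called higher and 0 lower. Of 22 other cytokines and growth factors, Il6, Osm, Inhba, Edn1 and Thbs1 were called higher and 0 lower (1 without carrageenan 9-12). Il6 was at 20.6, 27.3 and 17.6 against 113, 137 and 82.8 (2.29 ± 0.32, limma adjusted p = 0.00179). Tnf was at 417, 489 and 354 against 890, 487 and 278, with overlap and no call (0.25 ± 0.43, limma adjusted p = 0.997).

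Enzymes that make small signalling molecules were also among the called genes. Of 14 tested genes for itaconate, arginine, histamine and nitric oxide, 5 were called higher and 0 lower (3 without carrageenan 9-12, 3 to 7 over the omissions). Acod1, which makes itaconate from an intermediate of the citric acid cycle (chr14:103046977-103056573), was at 13.9, 27.1 and 13.5 in saline and at 393, 318 and 555 in carrageenan (log2 fold change 4.50 ± 0.37, limma adjusted p = 5.41e-05). Hdc, which makes histamine (chr2:126593667-126619299), was at 7.44, 3.54 and 1.76 against 96.5, 98.4 and 156 (4.60 ± 0.45, limma adjusted p = 0.000102). These values did not overlap. Arg2, an arginase, rose by 3.93 ± 0.66 (limma adjusted p = 0.0054), Nos2, the inducible nitric oxide synthase, went from 4 reads to 128 over the pools, and the arginine transporter Slc7a2 rose by 2.83 ± 0.70 (limma adjusted p = 0.0452, and 0.101 with the pool number as a block). Arg1, the other arginase, overlapped at 0.676, 22.3 and 4.70 against 4.76, 13 and 39.9 and was not called.

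The prostanoid list split. Prostaglandins are lipids that sensitize pain fibres, and of 16 tested genes for their synthesis, transport and reception, 2 were called higher and 1 lower, with a median of -0.07. Ptgs2, the inducible cyclooxygenase, was at 27.7, 47.9 and 35.3 in saline and at 236, 355 and 496 in carrageenan (log2 fold change 3.23 ± 0.50, limma adjusted p = 0.00322). Ptges, which makes prostaglandin E2 from its product, was at 2.03, 1.01 and 4.70 against 19.0, 34.2 and 61.4 (3.43 ± 0.71, limma adjusted p = 0.0191, up to 0.115 without carrageenan 9-12). Slco2b1, an organic anion carrier, fell, from 120, 92.7 and 85.2 to 16.3, 17.7 and 3.07 (-3.18 ± 0.59, limma adjusted p = 0.00964, up to 0.0730 without saline 1-4). Hpgd, the enzyme that degrades prostaglandins, was at 70.0, 74.9 and 75.2 against 24.5, 17.7 and 6.14 and was not called by limma (adjusted p = 0.18, edgeR adjusted p = 0.00118). Of 9 leukotriene pathway genes, Alox5, the 5-lipoxygenase that starts leukotriene synthesis, was called lower (-1.44 ± 0.33, limma adjusted p = 0.0283, and 0.0981 without carrageenan 9-12).

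Because Fabp5 carries lipids, genes of fatty acid handling and endocannabinoids were examined as a group. Of 24 tested genes for fatty acid binding, PPAR factors and lipid handling, 0 were called higher and 2 lower, with a median of -0.23 (0 without carrageenan 9-12). Lpl, which releases fatty acids from lipoproteins, was at 658, 570 and 557 in saline and at 312, 210 and 127 in carrageenan (log2 fold change -1.54 ± 0.34, limma adjusted p = 0.0267). Cd36, a fatty acid and scavenger receptor, was at 573, 995 and 683 against 466, 352 and 222 (-1.14 ± 0.28, limma adjusted p = 0.0434, and 0.0578 with the pool number as a block). Fabp3 and Fabp4, relatives of Fabp5, had log2 fold changes of 0.72 and 1.25 and were not called. Each of the 6 tested endocannabinoid genes had a negative log2 fold change (median -1.02), and 1 was called lower: Abhd12, a lipase for monoacylglycerols such as 2-arachidonoylglycerol, at 229, 167 and 169 against 90.4, 85.1 and 73.6 (-1.16 ± 0.26, limma adjusted p = 0.0267). Abhd12 lost its call with the block (limma adjusted p = 0.0524) and without carrageenan 9-12 (0.103), and the omissions gave p up to 0.181, without saline 1-4. Of 21 genes for sterol synthesis and efflux, limma, edgeR and DESeq2 called 0 in either direction, and 3 had an unadjusted limma p under 0.05.

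**Figure D2:**
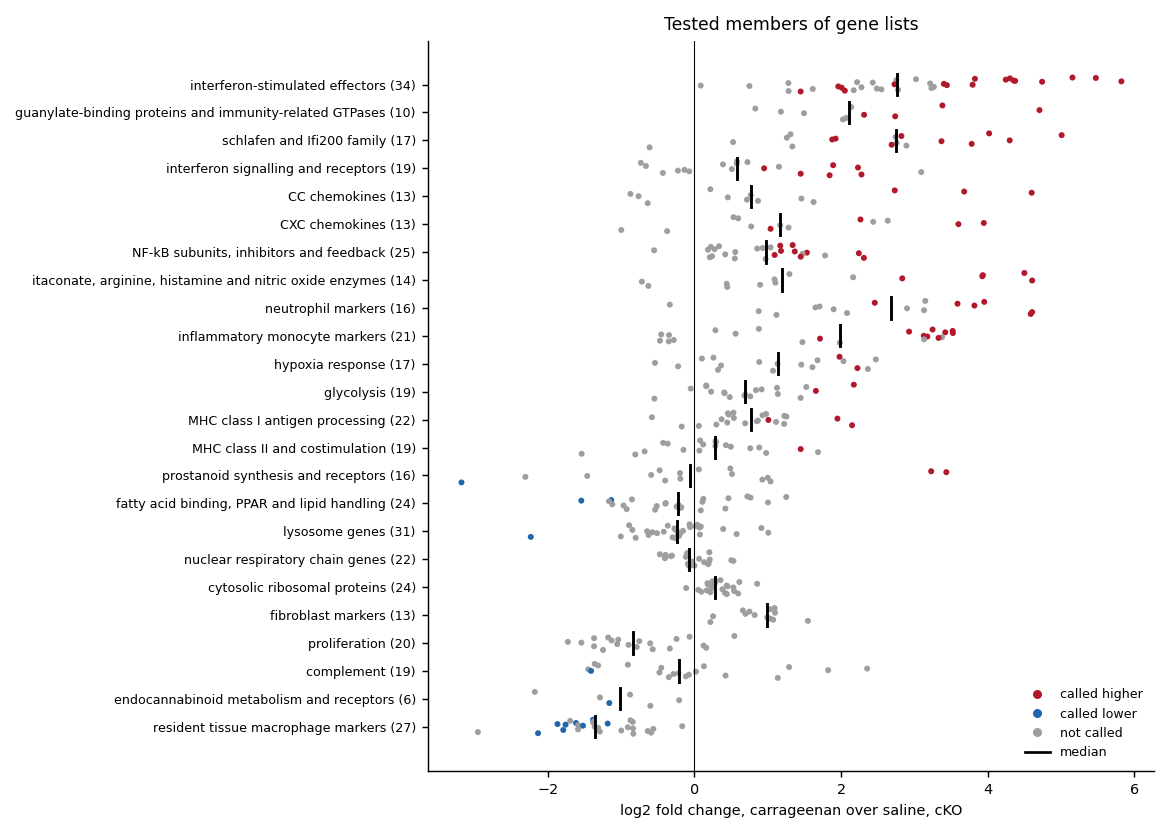
Log2 fold changes of carrageenan over saline in cKO for the tested members of 24 gene lists (number tested in brackets), with red points for genes called higher, blue for genes called lower, grey for genes not called and a black bar for the median. The medians of the interferon, neutrophil and monocyte lists lie right of 0, the resident macrophage list lies left of 0 in each of its members, and the ribosomal and respiratory chain medians are 0.28 and -0.08 with no call.

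Genes of resident tissue macrophages were lower. Each of the 27 tested markers had a negative log2 fold change, 8 were called lower and 0 higher, and the median was -1.36 (5 called without carrageenan 9-12, 2 to 13 over the omissions). The summed level of the 28 markers was 21762 to 29003 in saline and 7215 to 14385 in carrageenan. The called genes were Cd163, the receptor for haemoglobin complexes, Selenop, F13a1, Cbr2, Gas6, a ligand for the removal of dying cells, the transcription factor Maf, the antibody receptor Fcgrt (limma adjusted p = 0.0613 with the pool number as a block), and Wwp1. Cd163 (chr6:124304656-124330527) was at 718, 753 and 916 in saline and at 357, 330 and 235 in carrageenan (log2 fold change -1.38 ± 0.24, limma adjusted p = 0.00731). Maf was at 1109, 724 and 876 against 368, 302 and 265 (-1.52 ± 0.27, limma adjusted p = 0.00761, up to 0.0570 without saline 1-4). For both, each carrageenan pool was below each saline pool. Mrc1, Lyve1 and Adgre1 (F4/80) were not called, with log2 fold changes of -0.87, -1.70 and -0.56. In sorted pools, fewer cells of a type and less RNA of these genes per cell cannot be told apart.

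The largest falls included lectins of the same kind of cell. Clec10a, a lectin that binds galactose-type sugars (chr11:70156197-70170834), was at 302, 251 and 335 in saline and at 63.5, 69.5 and 30.7 in carrageenan (log2 fold change -2.49 ± 0.40, limma adjusted p = 0.00363). Cd209f and Cd209g, mouse relatives of DC-SIGN with similar sequences, had log2 fold changes of -2.79 and -3.26 (limma adjusted p = 0.037 and 0.0487, and 0.0578 and 0.0867 with the pool number as a block). By contrast Clec4e (Mincle), a lectin that activates the cell, was at 255, 548 and 262 against 1663, 1535 and 1378 and was called higher (2.19 ± 0.35, limma adjusted p = 0.00363). Over the 24 tested lectins and scavenger receptors, 1 was called higher and 4 lower. The other largest falls by rule were Sesn1, Arl11, Etv5, Kifc3, Tpcn1, Lyl1, Akr1b8, Wwp1, Zcchc24, Ighm and Mef2c, with log2 fold changes from -3.10 (Sesn1) to -2.04 (Mef2c). Of the 15 falls, Clec10a and Zcchc24 were called in each fit that left out 1 library. With the pool number as a block, Etv5, Kifc3 and Akr1b8 lost their call (limma adjusted p = 0.0624, 0.0631 and 0.0618).

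Genes that mark inflammatory monocytes were higher in part. Of 21 tested, 9 were called higher and 0 lower, with a median of 1.98 (6 called without carrageenan 9-12, 6 to 10 over the omissions). The log2 fold change was positive for 16 and negative for 5, with a lowest value of -0.47. The summed level of the 21 overlapped, at 5135 to 6880 in saline and 6839 to 13792 in carrageenan (exact two-sided permutation p = 0.2). Ly6c2, the antigen that defines these cells, was at 13.2, 20.8 and 38.8 in saline and at 109, 183 and 520 in carrageenan (log2 fold change 3.25 ± 0.55, limma adjusted p = 0.00551). Plac8 was at 11.2, 22 and 34.1 against 109, 244 and 549 (3.52 ± 0.51, limma adjusted p = 0.00188). For both genes pool 9-12 was the highest and pool 1-4 the lowest in each treatment. Vcan, Chil3, Thbs1, Ms4a4c, F10 and Gsr were also called. Ccr2, the receptor for Ccl2, had a log2 fold change of 0.29 and was not called.

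Neutrophil markers were higher too, although the gate excludes Ly6G+ cells. Of 26 markers 16 could be tested, 6 were called higher and 0 lower, and the median was 2.68 (2 called without carrageenan 9-12). Markers low in saline could enter the test through the carrageenan libraries, so this median describes the tested members only. Under 10 reads over the 6 cKO libraries were found for 8 of the 26. The summed level of the 26 was 99.9 to 159 in saline and 504, 670 and 1893 in the carrageenan pools 1-4, 5-8 and 9-12. S100a9, a calcium-binding protein abundant in neutrophils and monocytes, was at 1.35, 3.04 and 7.64 against 30.2, 38 and 249 (log2 fold change 3.95 ± 0.94, limma adjusted p = 0.037, and 0.230 without carrageenan 9-12). The granule genes Ltf and Camp had 0 reads in the 6 libraries, and Mpo and Elane had 1 and 2. Csf3r, Mmp8, Lcn2, Hdc and Slpi were the other called members, and Hdc and Csf3r were called in each fit that left out 1 library. The part of neutrophils in the rises above was not tested.

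Markers of other cells were summed in the same way. The 13 fibroblast markers each had a positive log2 fold change (median 0.99), with summed levels of 353 to 892 in saline and 900 to 1376 in carrageenan (exact two-sided permutation p = 0.1), and limma, edgeR and DESeq2 called 0 of them (1 at an unadjusted limma p under 0.05). Sums of 62.3 to 118 and 81.9 to 130 for 8 tested endothelial and mural markers and 4 untested ones, and of 861 to 1849 and 733 to 1207 for 10 keratinocyte markers, overlapped. Sums over 9 red blood cell and platelet markers were 3742 to 7745 in saline and 1148 to 4180 in carrageenan (exact two-sided permutation p = 0.3), nearly all from Pf4, a platelet chemokine that is also in the CXC chemokine and resident macrophage lists. Pf4 was at 3995, 7676 and 3658 against 4147, 3177 and 1066, with overlap and no call (limma adjusted p = 0.426), and the haemoglobin genes Hba-a1, Hba-a2, Hbb-bs and Hbb-bt did not exceed 33.8 in any of the 6 libraries. Cd79a and Ncr1, which mark B and NK cells, had 0 reads, and Cd3e of T cells had 4 in saline and 3 in carrageenan. Gzmb, a protease of killer cells that other leukocytes can make, nevertheless went from 6 reads to 291 and was called higher (4.10 ± 0.74, limma adjusted p = 0.00813), with the lowest carrageenan value in pool 9-12 (45.5, 44.5 and 9.21). It was not called in every fit that left out 1 library.

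Calls differed among metabolic, antigen presentation and housekeeping lists. Over all genes tested, 2.1% were called higher. Of 19 glycolysis genes, Slc2a1, a glucose transporter, and Pfkfb3, which accelerates glycolysis, were called higher, and 0 were called without carrageenan 9-12. Of 17 tested genes of the hypoxia response, 2 were called higher and 0 lower (1 higher without carrageenan 9-12). Hif1a, the factor that responds to low oxygen, was at 118, 224 and 119 in saline and at 550, 690 and 514 in carrageenan (log2 fold change 1.98 ± 0.27, limma adjusted p = 0.00129), and Hilpda, a lipid droplet protein it induces, rose by 2.22 ± 0.42 (limma adjusted p = 0.0115). Of 22 genes for antigen processing on MHC class I, Tap1, Tapbp and Nlrc5 were called higher (0 without carrageenan 9-12), and Nlrc5 lost its call with the pool number as a block (limma adjusted p = 0.0624). Of 19 for MHC class II and costimulation, 1, Cd40, was called (0 to 4 over the omissions). Limma, edgeR and DESeq2 called 0 of 24 ribosomal protein genes, 22 nuclear respiratory chain genes, 14 heat shock chaperones and 20 proliferation genes, of which 1, 0, 0 and 0 had an unadjusted limma p under 0.05. Immediate early genes, which rise when tissue is dissociated, were called in 2 of 18 cases (Fosl2 and Nr4a3), with a median of -0.24.

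Pools of the same number were set against each other, though the labels state no pairing, and the size of the difference varied. Subtracting the saline pool of the same number, the median over the 215 genes called higher was 1.87, 1.77 and 2.39 for pools 1-4, 5-8 and 9-12, and over the 56 called lower -1.35, -1.44 and -2.10. The medians were 1.66, 2.42 and 4.11 for the neutrophil list, 1.55, 2.25 and 2.84 for monocyte markers and -0.73, -1.22 and -1.74 for resident macrophage markers. For the interferon-stimulated effectors they were closer together (2.59, 2.61 and 3.02). CC chemokines ran in the other direction (1.40, 0.62 and 0.33). The genes called were chosen from these same pools, so these medians are a description. Pool 9-12 also had the shallowest carrageenan library and its highest 28S share.

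**Figure D3:**
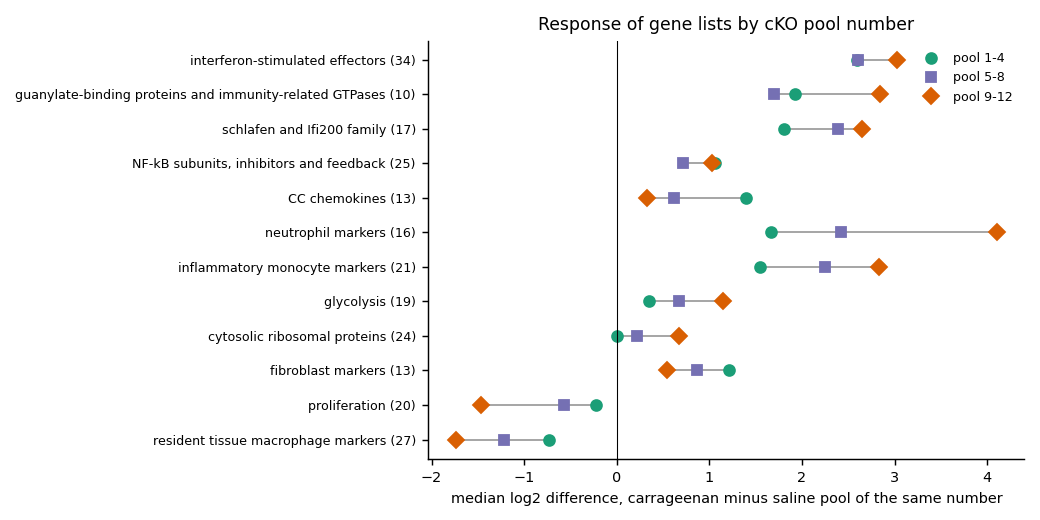
Median log2 difference between the carrageenan and saline pools of the same number for 12 gene lists (number tested in brackets), with a symbol for each of 3 pools and a grey line for their range. Pool 9-12 is the highest for neutrophil markers (4.11) and the lowest for resident macrophage markers (-1.74) and CC chemokines (0.33). The labels state no pairing of these pools.

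The response was set beside that of Flox cells, which has its own saline libraries. The Flox libraries held 111925 to 994161 reads on genes and the cKO libraries 508407 to 2987015, so depth is confounded with genotype. What this does to the counts and sizes below was not tested. In Flox, 734 genes were called (7.17%), and 217 of them were shared with cKO, each in the same direction. These are 80.1% of the cKO calls and 29.6% of the Flox calls. Each of the 271 cKO calls had the same sign in Flox, with a larger size in Flox for 117 of them. The median log2 fold change of the 215 genes was 1.96 in cKO and 1.83 in Flox, and that of the 56 was -1.68 and -1.81. The 271 genes were chosen by their cKO result, which favours large sizes in cKO. These sizes therefore describe the set and do not rank the 2 genotypes. The difference between the responses was called for 0 of 10240 genes (0%) by limma, edgeR and DESeq2, and 246, 233 and 300 genes had an unadjusted p under 0.05. With a median SE of 0.52 for the difference over the 271 genes, differences of moderate size were not detectable with these libraries, and this does not show that the responses are alike.

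The genes with the smallest p for the difference were mostly low in Flox saline. Cutc, Adh7 and Zfp574 were among them: Cutc was at 9.13, 7.60 and 3.53 in cKO saline and at 3.40, 6.48 and 3.07 in cKO carrageenan, against 0, 0 and 0 and 5.21, 16.9 and 9.82 in Flox (difference -3.93 ± 0.94, limma adjusted p = 0.966). A single read is worth 5.51 normalized counts in the shallowest Flox saline library. Hcar2, a receptor for hydroxybutyrate and niacin, was at 15.5, 8.10 and 12.3 against 18.3, 41.5 and 117 in cKO and at 0, 2.33 and 2.14 against 75.5, 47.3 and 81.6 in Flox (difference -3.08 ± 0.96, limma adjusted p = 0.966). Inhba, which encodes a subunit of activin, had log2 fold changes of 4.50 in cKO and 6.84 in Flox, and Hdc of 4.60 and 3.38. The difference was not called for either gene.

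**Figure D4:**
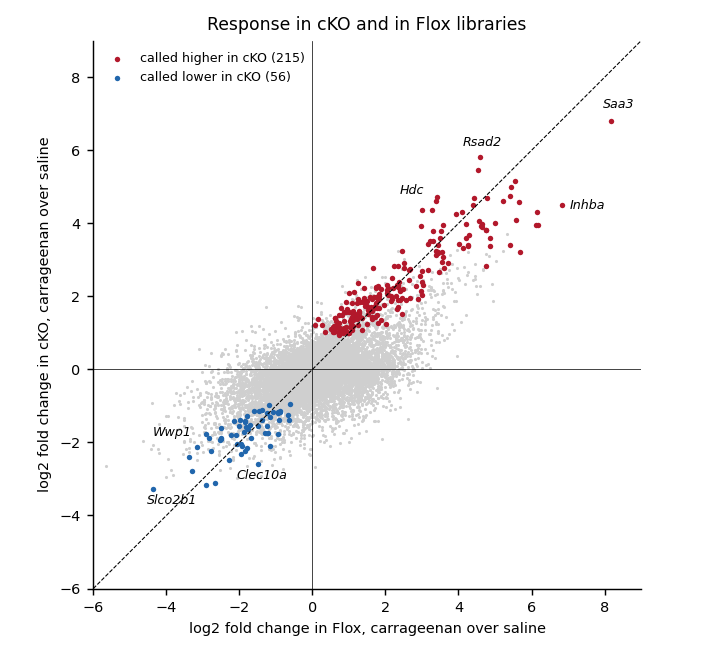
Log2 fold change of carrageenan over saline in cKO against that in Flox for 10240 tested genes, with the 215 genes called higher in cKO in red, the 56 called lower in blue and a dashed line of equality. Each coloured point has the same sign on both axes, and points lie on both sides of the line.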

How the data were processed

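Ly6G- myeloid cells were sorted from mouse paws in 12 pools, and sequenced as 3' mRNA libraries tagged with unique molecular identifiers, per the labels' protocols. Per the submitters' processing notes, cutadapt, STAR and GRCm38 were used; versions and the counting tool are unstated there. The tables the authors deposited hold a signal, counts divided by a size factor per library, in 1 table per treatment. Every value was a whole multiple of 1 step per library (100% of low values, tolerance 0.001), so whole reads were recovered, and all 12 libraries were rescaled together by medians of ratios over 6501 genes. Left out were 121 rows that are not genes and the authors' tables of genotype effects.

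Genes reaching 5 in 3 or more libraries were tested with limma (3.58.1, R 4.3.3) with a mean trend on log2(value + 1), all 12 libraries in 4 groups, Benjamini-Hochberg threshold 0.05. This was the main test as planned; edgeR 4.0.16 (quasi-likelihood, 733 genes called in cKO) and DESeq2 1.42.0 (915) were run on the recovered reads. Scripts were tested on simulated data. Replicate pairs differed by more than counting error. Same-numbered cKO pools deviated together from their group means (r = 0.200, 0.336 and 0.434). So did saline 5-8 and carrageenan 1-4 (0.236), while other cKO pairs of unlike number gave -0.395 to 0.0294. Same-numbered Flox pools gave 0.00905, -0.0181 and 0.109. The labels state no pairing, so the main test used none, and the pool number was a block in an alternative fit. Blocked values are given for most named genes that lost their call with it.

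Named genes were Fabp5 and Lyz2, the 15 largest rises and falls among called genes with no overlap and a mean of at least 20 (gene models left out), called members and up to 5 members with the smallest p of described lists, defining markers, and the 10 smallest p for the difference; examples that were not called and lie outside this rule were chosen after their values were seen. The comparison and the 46 gene lists were chosen with earlier results of these data known. Alternatives were other pseudocounts, filters, the deposited scale, other tools, the block, cKO libraries alone and omission of each library. A few list members are not reported here. Positions follow GENCODE vM21, and promoters come from RefSeq.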

Additional observations from a re-analysis of the deposited data

How the results depend on the processing

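The 271 genes called in cKO became 143 with no filter on low values, 733 with edgeR, 915 with DESeq2, and 723 in the fit of the cKO libraries alone. Leaving out 1 library at a time gave 84 to 520 genes. The replicate block (pool number) gave 264 calls, 224 of them shared with the 271. The share of calls that were higher was 79.3%, against 64.0% with edgeR, 57.0% in the cKO libraries alone and 69.4% on the deposited scale (163 higher and 72 lower), where the median of all genes lay lower by 0.11 on the log2 scale. The 734 calls in Flox became 418 with no filter, and 351 to 1083 with 1 library left out, lowest without Flox carrageenan 4-7. The difference of responses had 0 calls under each alternative run. No named gene that was called changed direction under the alternatives. Of 133 named genes that were called, 15 lost their call with the block, 14 on the deposited scale, 53 with no filter, and 0 with edgeR or DESeq2; 78 lost it without cKO saline 1-4 and 68 without cKO carrageenan 9-12. The cause of these changes was not tested. Depth limits low genes: 3 reads stand for 0.760 to 4.60 normalized counts in cKO libraries.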

Other observations

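Of the 271 called genes, 148 were in none of the gene lists; those named here were chosen after their values were seen. Sphk1, which makes sphingosine 1-phosphate, was at 13.2, 18.7 and 17.6 in the saline pools and at 95.8, 101 and 98.2 in the carrageenan pools (log2 fold change 2.52 ± 0.40, limma adjusted p = 0.00363). Sgpp1, which removes that phosphate, was at 172, 141 and 146 against 47.2, 38 and 33.8 (-1.93 ± 0.33, limma adjusted p = 0.00613). Cers6, a ceramide synthase, and Ugcg, which makes glucosylceramide, rose by 1.92 ± 0.33 and 1.59 ± 0.28 (limma adjusted p = 0.00597 and 0.00805, the latter up to 0.0559 without saline 1-4). Other genes of sphingolipid metabolism were not called and had log2 fold changes of both signs, such as 0.42 for Sptlc2, 0.01 for Cers2, -0.95 for Cers4 and -1.26 for Galc. Slc18a2, the vesicular carrier that loads histamine and other monoamines, was read 2 times in saline and 59 times in carrageenan, beside the rise of Hdc.

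Receptors and signalling genes outside the lists moved in both directions. Higher were Il17ra, the interleukin-17 receptor (105, 105 and 95.2 against 287, 322 and 384, limma adjusted p = 0.00179), Tnfrsf1b, a receptor for TNF (191, 243 and 265 against 884, 762 and 810, limma adjusted p = 0.00537), and the Src family kinase Fgr (log2 fold change 1.84 ± 0.28, limma adjusted p = 0.00293). Lower were the growth factor and cytokine receptors Nrp1 (79.1, 74.9 and 102 against 23.4, 25 and 18.4, limma adjusted p = 0.00363), Fgfr1 (260, 226 and 283 against 105, 92.5 and 61.4, limma adjusted p = 0.00363) and Lifr (124, 103 and 122 against 42.1, 38.3 and 21.5, limma adjusted p = 0.00506). These 6 genes were called in each of the 12 fits that left out 1 library. Ighm, the immunoglobulin mu chain, fell from 590 reads to 111 over the pools, while Cd79a of B cells had 0 reads.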
